A study of Homo sapiens with 4 samples.

Results

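A set of genes of the mesenchymal state was followed through the RNA targets of HNRNPC and PABPC4 in MDA-MB-231, an established human triple-negative breast cancer line. The genes, 7 of the 13328 with a peak in either list, were VIM, ZEB1, SNAI2, CD44, CAV1, LGALS1 and TGFBI, and their peaks were all positions listed under their NCBI Gene IDs (7431, 6935, 6591, 960, 857, 3956 and 7045). They held 15 of the 9107 HNRNPC peaks and 65 of the 63507 PABPC4 peaks. The genes were chosen by name with their peak heights already known, among them the height of the VIM 3′ UTR peak, so the values below are descriptions and no test was made on them.

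The samples were 2 libraries of HNRNPC, a nuclear RNA-binding protein that prefers runs of U, and 2 of PABPC4, a poly(A)-binding protein. Cells were grown in serum-containing medium and irradiated at 400 mJ per square centimetre with 254 nm light, and the labels named no other treatment and no genetic change. HNRNPC was profiled by irCLIP according to the labels, although the name of its list gives HITS-CLIP. In both, crosslinked RNA fragments are recovered with the protein and sequenced as tags. PABPC4 was profiled by PAPERCLIP, which captures fragments that carry poly(A) and so reads out mRNA 3′ ends. Each protein has 1 list made from both libraries pooled, so no value has a spread between replicates, no input or control antibody was analysed here, and the intervals given cover counting error only.

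In the epithelial to mesenchymal transition, cells lose their junctions and take up a motile, matrix-producing state. The transcription factors ZEB1 and SNAI2 repress epithelial genes, vimentin (VIM) becomes the main intermediate filament, and surface and secreted proteins such as CD44, caveolin-1 (CAV1), galectin-1 (LGALS1) and the matrix protein encoded by TGFBI accumulate. An mRNA 3′ end is made by cleavage a short distance after a poly(A) signal, usually AAUAAA or AUUAAA, and a gene with several such sites can make 3′ UTRs of different length.

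PABPC4 peaks that ended within 24 nt of an annotated end and had a poly(A) signal in or next to the 3′ UTR are shown first, since the main values here are their heights. Each line below is 30 bases of the transcribed strand in hg38, starting at the poly(A) signal, which is in capitals. All of these genes lie on the plus strand.
VIM, chr10:17237573-17237602: AAUAAAucuuuggaaaaacucuuuuguugu
LGALS1, chr22:37679772-37679801: AAUAAAggcagcugccucugcucccucuga
CAV1 distal end, chr7:116561157-116561186: AAUAAAaauguuuaacgguuaaacagucag
CD44 distal end, chr11:35232380-35232409: AUUAAAagacuaaaggaaacagacucagaa
CD44 end of the 121-tag peak, chr11:35229999-35230028: AAUAAAuaucuguacuucuucgaucuucac
TGFBI, chr5:136063799-136063828: AAUAAAaccaaagaaacauacguccugugu
ZEB1, chr10:31529178-31529207: AAUAAAaugcaucaacaagccugaacugcu
Another peak at an annotated end stood apart. The tallest peak of CAV1 had neither signal in its last 40 nt, and its last 30 bases hold a run of 14 A, shown in capitals.
CAV1 proximal peak, chr7:116559606-116559635: cugaggaggAAAAAAAAAAAAAAgaaaaga

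A pair of HNRNPC sites of the same genes is shown next, because one follows a U run and the other does not. Each is the peak with 50 nt before and 10 nt after it, on the plus strand of hg38, with U runs of 5 or more and the hexamer GUGUCA in capitals. Neither resembles 7SL RNA, the ancestor of Alu repeats.
CD44 intron 5, chr11:35192615-35192787: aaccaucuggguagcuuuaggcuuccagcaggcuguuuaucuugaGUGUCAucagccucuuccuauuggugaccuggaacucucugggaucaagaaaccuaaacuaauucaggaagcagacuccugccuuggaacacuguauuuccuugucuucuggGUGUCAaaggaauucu
CAV1 intron 2, chr7:116550349-116550509: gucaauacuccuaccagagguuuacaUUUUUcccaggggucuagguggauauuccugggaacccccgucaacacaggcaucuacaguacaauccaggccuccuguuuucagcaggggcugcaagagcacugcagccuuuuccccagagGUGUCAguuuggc

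All 7 genes had a PABPC4 peak, against 59.2% of 20056 protein-coding genes. The tallest peak of VIM reached 10197 tags at its summit, that of LGALS1 2991, of CAV1 2714, of CD44 331, of TGFBI 244, of ZEB1 139 and of SNAI2 59. The range over the 7 genes was wide, with VIM, LGALS1 and CAV1 far above the other 4, and the median tallest peak over all 13189 genes of the list was 78 tags. Only SNAI2 of the 7 lay below that median. ZEB1 exceeded it through a peak in coding sequence, and its only 3′ UTR peak had 73 tags. The exact Poisson 95% intervals of neighbours in this order did not overlap, down to LGALS1 (2885 to 3100) against CAV1 (2613 to 2818), which differed by 1.1-fold. Heights are tags at a single summit and were not divided by a length, and the amount of an mRNA, its share bound by PABPC4 and the share of cells that hold it cannot be told apart in such a bulk list.

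The height expected by chance in a gene, which the authors' peak caller wrote beside each peak, gave another order. It was 67.5 tags for VIM, 53.8 for LGALS1 and 8.92 for CAV1, but only 0.68 for SNAI2, 0.59 for CD44, 0.44 for TGFBI and 0.33 for ZEB1. The median over the genes of the list was 0.180. SNAI2, last by its summit, came before CD44, TGFBI and ZEB1 on this scale.

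Among genes, VIM ranked 2 by its tallest PABPC4 peak, 1 by its tallest 3′ UTR peak and 11 by the summed height of all its peaks. The protein-coding gene next below it was GAPDH, the glycolytic enzyme often used as a loading control, at 7950 tags. LGALS1 ranked 36, between the ribosomal protein genes RPL39 (3047) and RPL35A (2937), and CAV1 ranked 43, between RPL30 (2717) and the lysosomal protease gene CTSD (2682). CD44 ranked 944, with WDR83OS (332) above and AHR (330), the dioxin receptor, below. TGFBI ranked 1448, next to VMA21 (245) and CDC16 (243). ZEB1 ranked 3178, next to YJU2B (140) and ADGRL3 (138), and SNAI2 ranked 8119, next to ZNF804B (60) and AKAP7 (58). By summed height LGALS1 ranked 97, CAV1 38, CD44 559, TGFBI 3420, ZEB1 366 and SNAI2 9764, so ZEB1 passed CD44 and TGFBI on that scale. From CD44 downwards several genes share each height, and the gene named is the last by symbol of those above and the first of those below.

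**Figure D1:**
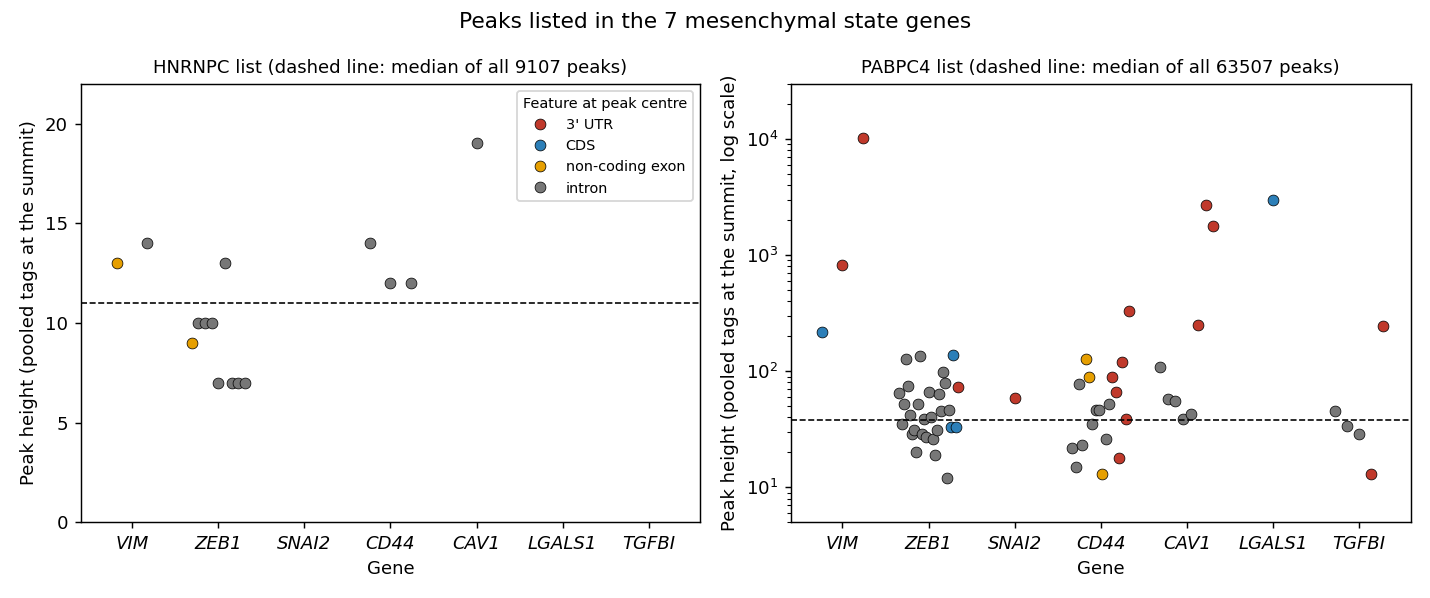
Height of every listed peak (y axis, pooled tags at the summit; log scale on the right) in each of the 7 genes (x axis), coloured by the feature at the peak centre. HNRNPC peaks lie between 7 and 19 tags and are absent from the list for SNAI2, LGALS1 and TGFBI, while PABPC4 peaks run from 12 tags to the 10197 of VIM.

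HNRNPC peaks were low and mostly intronic. Of the 7 genes, 4 had at least 1 peak, while 19.0% of protein-coding genes did, and these 4 were in both lists, as were 18.6% of protein-coding genes. ZEB1 had 9 peaks, CD44 3, VIM 2 and CAV1 1. SNAI2, LGALS1 and TGFBI were not in the HNRNPC list, which holds only peaks with a peak-caller p-value of at most 0.1. That p-value was 0.0636 for each 7-tag peak of ZEB1 and 0.018 for the first peak of VIM. Heights ran from 7 to 19 tags with a median of 10, against 11 for the whole list. Introns held 13 of the 15 peaks and exons of non-coding transcripts the other 2, whereas 85.5% of all HNRNPC peaks were intronic. None of the 7 genes had an HNRNPC peak in a 3′ UTR, a class that reached 1.98% of protein-coding genes, and 0 of 15 peaks allows a share of up to 20.4% (Wilson 95% interval).

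VIM, the intermediate filament gene, spans 9.35 kb on chromosome 10 and has 10 exons. It had 3 PABPC4 peaks, of 216, 826 and 10197 tags at the summit. The tallest (chr10:17237359-17237595) ended 2 nt past the annotated end of the mRNA, with AAUAAA starting 23 nt before the peak end, and held 90.7% (Wilson 95% interval 90.2 to 91.3) of the gene's summed height. The peak of 826 tags lies directly before it, with 1 base between them, and ended 236 nt before the annotated end without either signal. Both are centred in a 3′ UTR of only 325 nt. The peak of 216 tags fell in the coding part of exon 9 and was followed by an A-rich stretch, meaning 6 A in a row or at least 7 A in 10 bases within 50 nt after the peak.

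The HNRNPC peaks of VIM had 13 and 14 tags and both are centred in intron 3 of the canonical transcript. The first (chr10:17230674-17230794) is centred 23 nt from an exon edge and overlaps the end of exon 3. Its centre falls in an exon of a non-coding transcript. The second (chr10:17232965-17233093) resembles the antisense strand of 7SL RNA, as Alu repeats in reverse orientation do, with UUUUUU just upstream. VIM had the highest expected HNRNPC height of the 4 genes, 1.21 tags against 0.35 for CD44, 0.2 for CAV1 and 0.14 for ZEB1, and neither of its peaks had a peak-caller p-value of 0.001 or less. Of the other genes, 5 of 9 peaks of ZEB1, all 3 of CD44 and the 1 of CAV1 did.

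ZEB1, a zinc finger repressor of E-cadherin, spans 211 kb, and most of its summed PABPC4 peak height lay away from its 3′ UTR. Of its 29 PABPC4 peaks, 25 were intronic, with 12 to 135 tags each, and 17 of these were in intron 1. Introns held 82.2% of its summed height of 1564 tags, while the median over all genes in the PABPC4 list was 36.4%. An A-rich stretch followed 21 of the 25, and 4 of these 21 also had AAUAAA in the last 40 nt. Its tallest peak, 139 tags (chr10:31520782-31520812), lies in the coding part of exon 7, ended 1 nt past the annotated end of a transcript with a retained intron, and had no poly(A) signal. The 30 bases after it begin with A runs, here in capitals.
ZEB1 exon 7, chr10:31520813-31520842: AAAAAgAAAAuccagucgcuacAAAcaguu
That both an annotated end and genomic A lie at this position was measured, and their parts in the peak were not tested. Another 2 coding peaks, of 33 tags each, were followed by an A-rich stretch as well.

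The only 3′ UTR peak of ZEB1 had 73 tags (chr10:31529124-31529200), with AAUAAA 23 nt before its end and no A-rich stretch after it. It ended 2 nt before an annotated end that lies inside the 3′ UTR, 604 nt short of the canonical end at position 31529804, where no peak was listed. ZEB1 is a well-known target of the miR-200 family, whose members fall into seed groups. The mature sequences (RefSeq, GRCh38.p14; all 5 names matched) are given with the seed, bases 2 to 8, in capitals.
miR-200b-3p: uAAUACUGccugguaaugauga
miR-200c-3p: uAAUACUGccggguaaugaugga
miR-429: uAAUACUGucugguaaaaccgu
miR-200a-3p: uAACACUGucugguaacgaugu
miR-141-3p: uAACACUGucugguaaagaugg
The 2543 nt 3′ UTR holds 6 copies of CAGUAUU, the match to the seed of miR-200b, miR-200c and miR-429, and 3 of CAGUGUU, the match to that of miR-200a and miR-141, on the transcribed strand. Upstream of the end of the 73-tag peak lie 5 of the 6 and all 3, and the remaining CAGUAUU lies beyond it and ends 34 nt downstream. At least 1 CAGUAUU was present in 26.6% of 2360 3′ UTRs within 20% of this length and at least 1 CAGUGUU in 28.4%. As many as in ZEB1 were held by 1 (0.0424%) and 16 (0.678%) of them, counts that may include ZEB1 itself. SNAI2 and TGFBI held 1 CAGUAUU each, present in 12.1% and 5.18% of 3′ UTRs within 20% of their lengths, and no CAGUGUU. VIM, CD44, CAV1 and LGALS1 held neither. A seed match is a description of the letters and not a measured site.

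**Figure D2:**
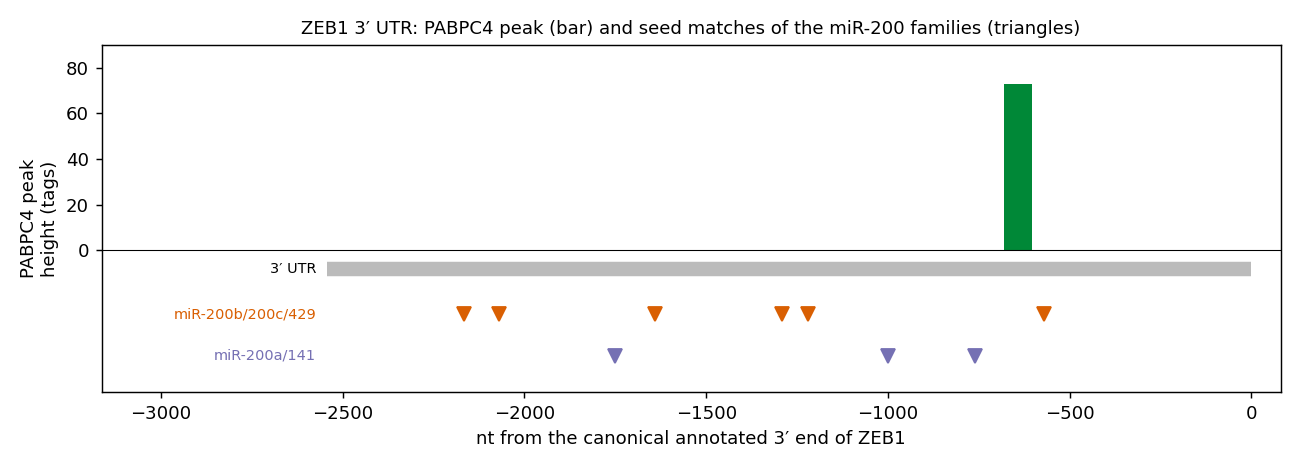
The 3′ UTR of ZEB1 (grey bar; x axis, nt from the canonical annotated end) with its PABPC4 peak (green bar; y axis, tags) and the seed matches of both miR-200 groups (triangles). The peak of 73 tags ends 604 nt before the canonical end, and 1 of the 9 seed matches lies beyond it.

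All 9 HNRNPC peaks of ZEB1 fell in intron 1, 8 of them as intron and 1, of 9 tags, in an exon of a non-coding transcript. Their heights were 9, 10, 10, 10, 7, 13, 7, 7 and 7 tags from 5′ to 3′. Those that resembled antisense 7SL RNA, 3 in number, had UUUUU or longer in the 50 nt upstream. At 4.27 peaks per 100 kb, ZEB1 was less densely listed than VIM (21.4), which is far shorter, and above CD44 (3.22), CAV1 (2.77) and the median of genes with any HNRNPC peak (2.86).

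SNAI2 (Slug), the other repressor, is a gene of 3.83 kb and had a single PABPC4 peak of 59 tags (exact Poisson 95% interval 44.9 to 76.1). Its 3′ UTR peak ended 174 nt before the canonical end and had AAUAAA 18 nt before the peak end with no A-rich stretch after it. It was the 1 gene of the 7 with no peak within 24 nt of an annotated end. The other 6 had one, compared with 39.8% of protein-coding genes.

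CD44, the hyaluronan receptor, is known for its variable exons. It showed the most 3′ UTR peaks of the 7 genes, 6 along 3072 nt. From 5′ to 3′ they had 90, 66, 18, 121, 39 and 331 tags, so that the last and distal peak held 49.8% (46.0 to 53.6) of the 3′ UTR height. That distal peak (chr11:35232295-35232403) ended 1 nt past the canonical end, with AUUAAA 24 nt before its end. The peak of 121 tags (chr11:35229986-35230027) ended exactly at another annotated end, 2375 nt upstream, with AAUAAA 29 nt before it. The peak of 66 tags also ended 3 nt past an annotated end, but had no signal and was followed by an A-rich stretch, as was the one of 39 tags. The 9 intron peaks of 15 to 77 tags and 3 peaks of 127, 90 and 13 tags in non-coding exons were each followed by an A-rich stretch. The one of 13 tags also had AAUAAA 15 nt before its end and ended 10 nt before an annotated end.

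The HNRNPC peaks of CD44 had 14, 12 and 12 tags, in introns 1, 5 and 9. None of them resembled 7SL or had UUUUU upstream. The one in intron 9 came closest to a PABPC4 peak, at 262 nt, and that PABPC4 peak, of 46 tags, preceded an A-rich stretch.

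CAV1, the scaffold protein of caveolae, had a pair of tall 3′ UTR peaks. The proximal peak (chr7:116559437-116559635) had 2714 tags and the distal one (chr7:116561014-116561178) 1793, their ends lying 1543 nt apart, and both ended 1 nt before an annotated end. The proximal peak thus held 60.2% (Wilson 95% interval 58.8 to 61.6) of the summed summit height of the pair. The share was 62.3% (60.9 to 63.7) with an adjoining peak of 250 tags (chr7:116559341-116559434) that has AAUAAA 27 nt before its end. These are shares of summit heights and not of all tags in the peaks, and adjoining peaks may share tags. The proximal peak ended 351 nt into the 3′ UTR and the distal one 1894 nt. The distal peak had AAUAAA 22 nt before its end and no A run longer than 5 in its last 40 nt. The proximal peak had the run of 14 A printed above, which ended 7 nt before the peak end. A run of 6 or more in the last 40 nt was found in 9.15% of all PABPC4 3′ UTR peaks and a run of 14 or more in 0.830%, and among the 15 such peaks of the 7 genes this was the only one. Whether the tags of the proximal peak come from an mRNA 3′ end or from the A run was not tested.

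The 5 intron peaks of CAV1 had 39 to 108 tags, and 4 of them preceded an A-rich stretch. Its single HNRNPC peak, in intron 2, was the tallest of the 15 at 19 tags.

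LGALS1, a secreted lectin that binds galactosides, had 1 PABPC4 peak of 2991 tags (chr22:37679617-37679806). It ended 4 nt past the annotated end, with AAUAAA 35 nt before the peak end. Its 3′ UTR is 56 nt long, so the centre of this 190 nt peak falls in the coding sequence of the last exon, and LGALS1 was the 1 gene without a peak classed as 3′ UTR (6 of 7 genes had one, against 48.8% of protein-coding genes). TGFBI, a matrix protein induced by TGF-beta, had 5 peaks. The main one, of 244 tags (chr5:136063748-136063817), ended 1 nt before the canonical end and 1 nt past the nearest annotated end, had AAUAAA 19 nt before its end and held 94.9% of the 3′ UTR height. The others had 13 tags in the 3′ UTR and 45, 34 and 29 in introns.

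**Figure D3:**
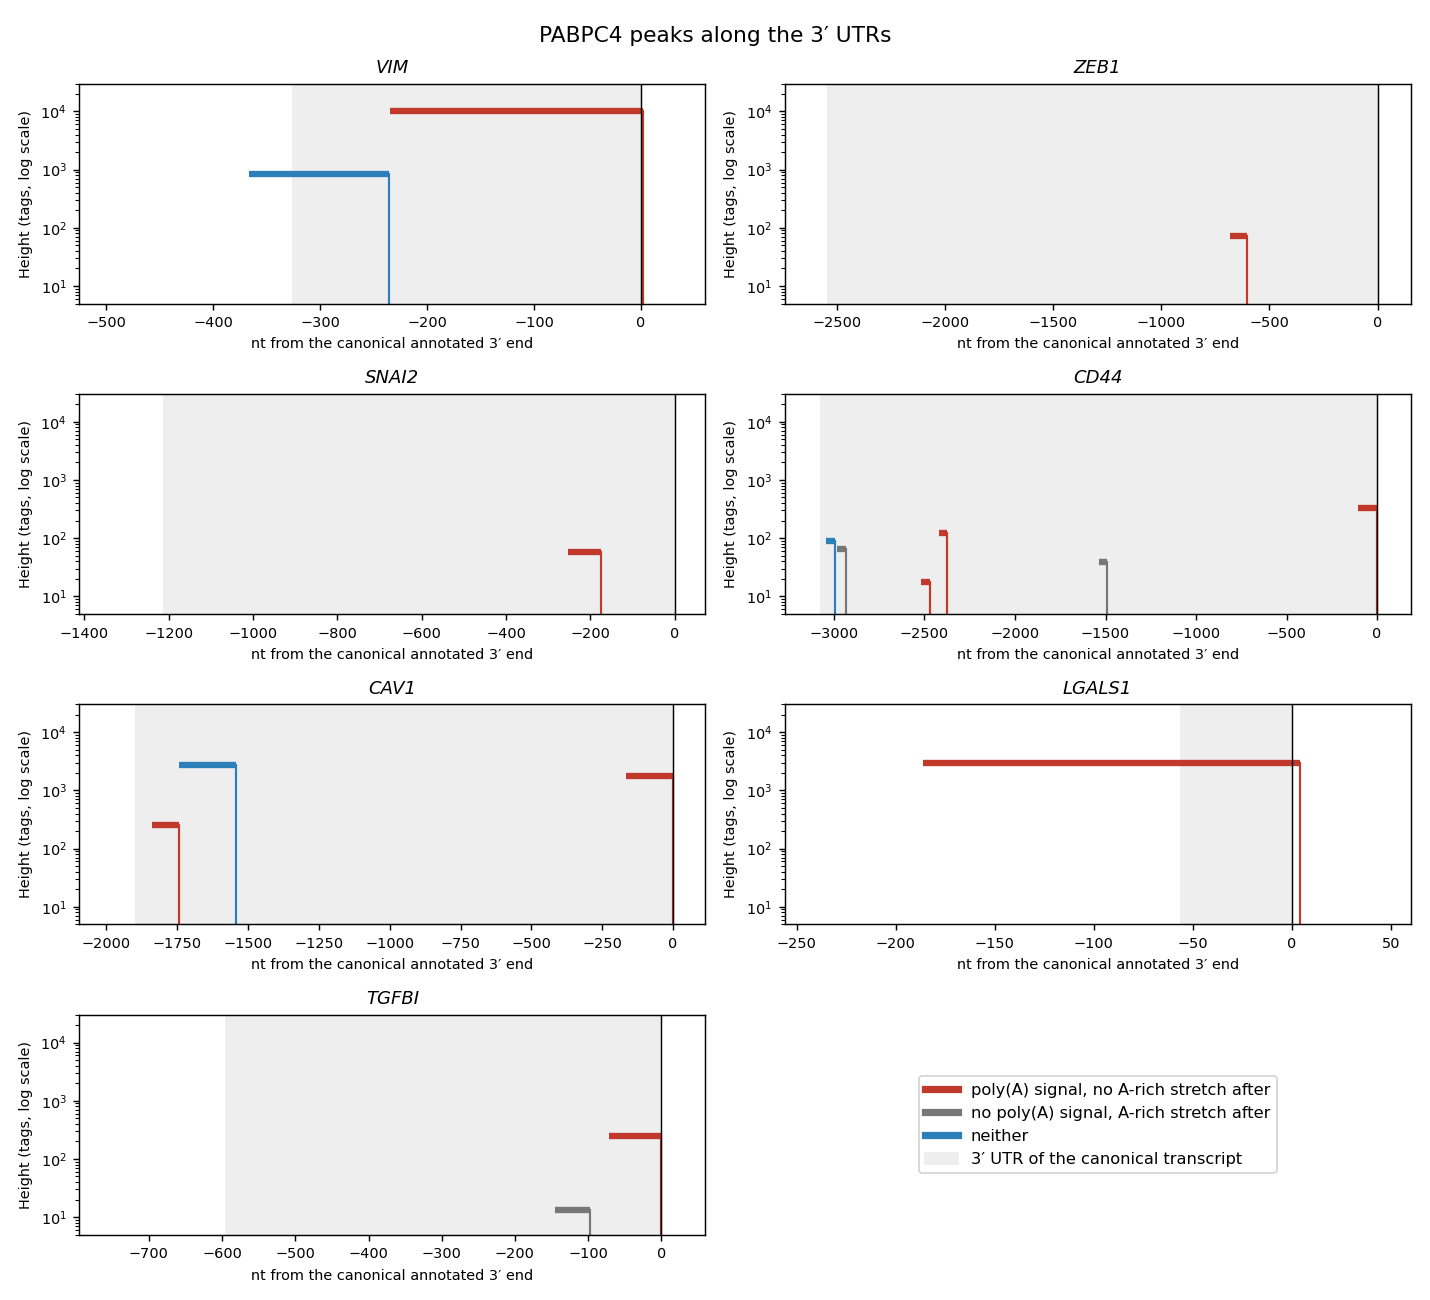
PABPC4 peaks along the 3′ UTR of each gene (grey; x axis, nt from the canonical annotated 3′ end; y axis, height in tags on a log scale), with each peak drawn as a horizontal bar over its width and a vertical line at its 3′ end. VIM, LGALS1, TGFBI and the distal peaks of CD44 and CAV1 end within 4 nt of the canonical end, whereas the only 3′ UTR peaks of ZEB1 and SNAI2 end 604 and 174 nt before it; the blue CAV1 peak is the one with 14 A inside it.

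Over all 15 PABPC4 3′ UTR peaks, 9 (60%) had AAUAAA or AUUAAA starting in the last 40 nt, against 50.5% of all 18915 such peaks in the list. Signals at these 3′ UTR peaks and at the LGALS1 peak started 18 to 35 nt before the peak end, and the median over the list was 21 nt before it. An annotated end lay within 24 nt for 8 of the 15 (53.3%, list 47.9%), and 3 (20%, list 31.9%) preceded an A-rich stretch. The Wilson 95% intervals of these small shares, 35.7 to 80.2%, 30.1 to 75.2% and 7.05 to 45.2%, all include the list's value. In introns, 36 of 42 PABPC4 peaks (85.7%, 72.2 to 93.3) preceded an A-rich stretch, and 71.2% did in the whole list. Only 9 of the 65 peaks (13.8%, 7.46 to 24.3) resembled the sense strand of 7SL RNA, against 35.5% of the list. ZEB1 gave 29 of the 65 peaks and CD44 18, and of the 42 intron peaks 25 and 9. Peaks of 1 gene share its transcripts, so these intervals are too narrow as errors of the genes.

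Over the 13 HNRNPC intron peaks, 5 (38.5%, 17.7 to 64.5) had UUUUU in the 50 nt upstream on the transcribed strand, against 31.5% of the list. All 4 that resembled antisense 7SL had it (63.3% in the list) and 1 of the other 9 did (14.7% in the list), the CAV1 site. GUGUCA lay between 20 nt before and 10 nt after the peak end in 3 of 15 peaks, those of CAV1 and of introns 1 and 5 of CD44, and in 37.0% of all HNRNPC peaks. Why this hexamer is at so many peak ends was not tested.

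None of the 15 HNRNPC peaks overlapped a PABPC4 peak of its gene, and in the whole list 88 of 8982 did. From an HNRNPC peak, the nearest PABPC4 peak of its gene was a median of 3233 nt away (262 to 11111), compared with 3847 nt over those 8982, the HNRNPC peaks whose gene had one. When PABPC4 peaks before an A-rich stretch were left out, the median for these genes rose to 36583 nt. The distances were then 10283 to 90445 nt for the 9 peaks of ZEB1 and 25302 to 85233 nt for CD44. For VIM they were 4134 and 6433 nt and for CAV1 3917 nt. The same value over the whole list was not computed.

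**Figure D4:**
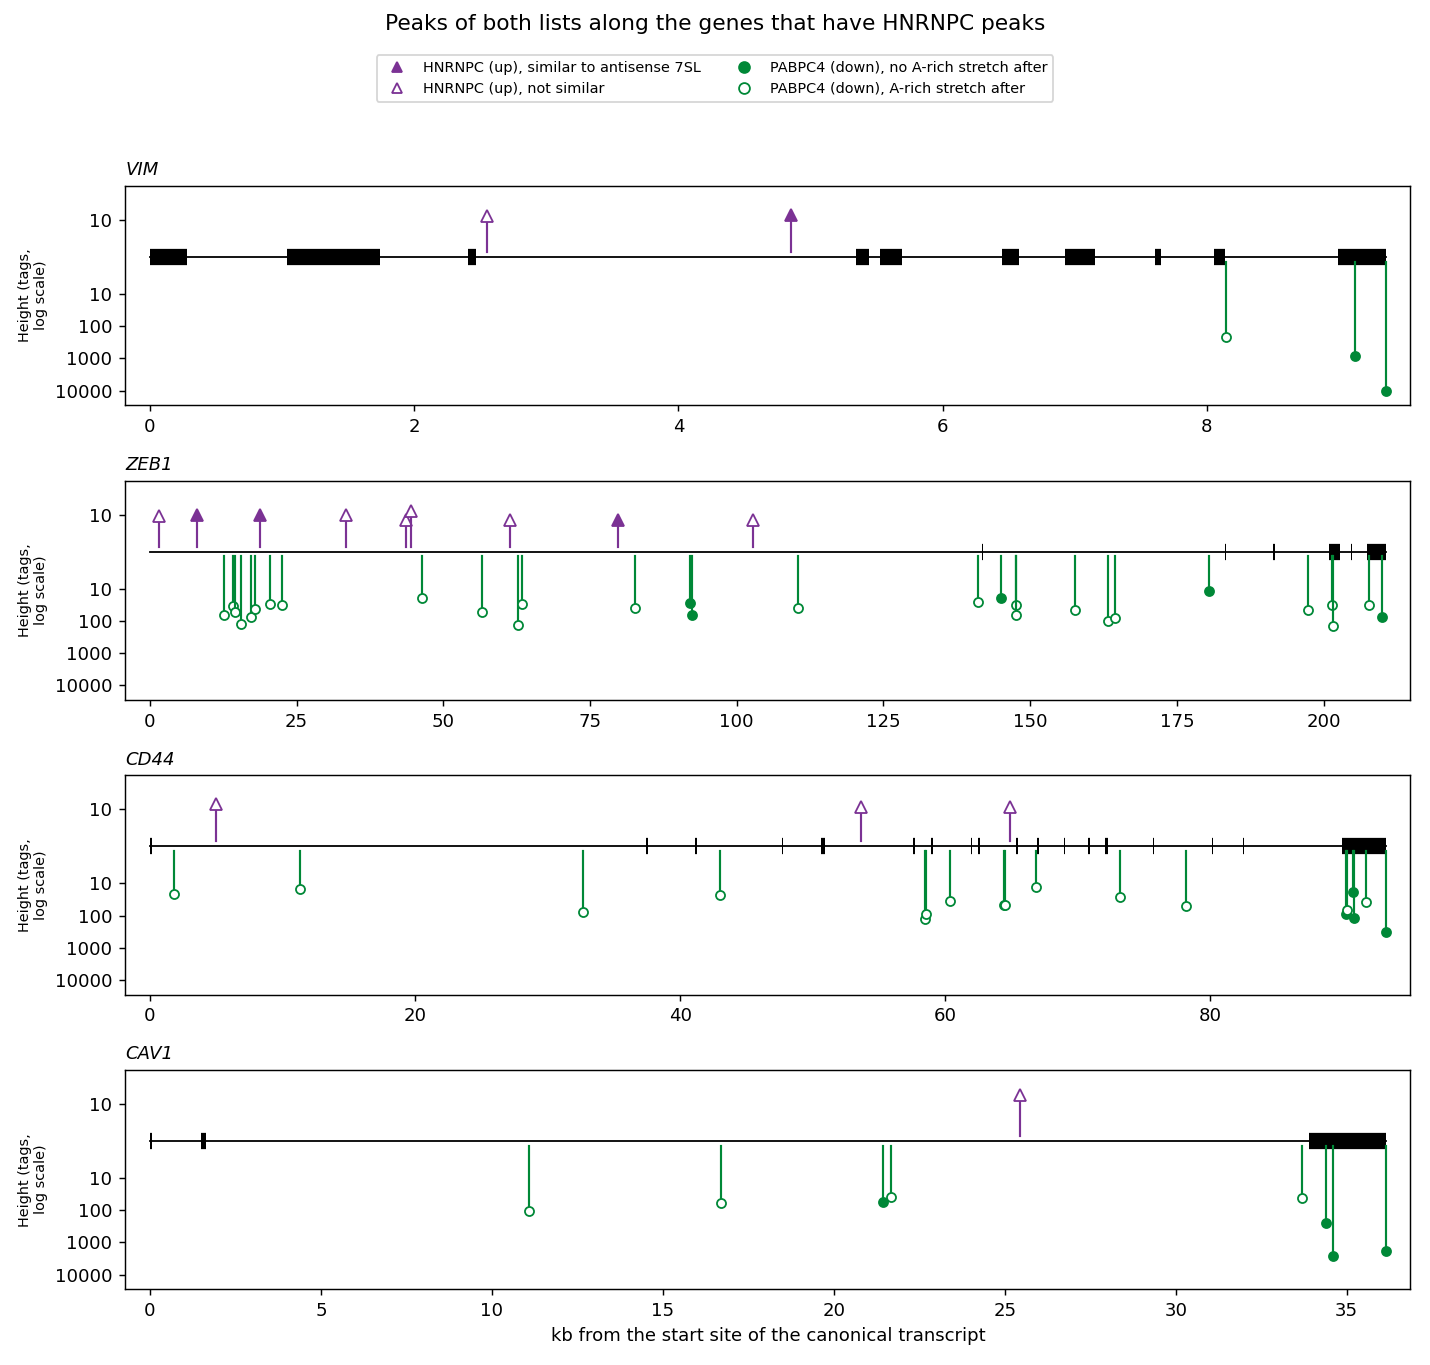
HNRNPC peaks (up) and PABPC4 peaks (down) along the 4 genes with both (x axis, kb from the start site; y axis, tags on a log scale; black boxes, exons). All HNRNPC peaks of ZEB1 lie in its first intron, and the PABPC4 peaks of its introns are mostly open circles, meaning that an A-rich stretch follows.

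The other genes of the programme were read from lists of 57 mesenchymal genes, 22 epithelial genes and 3 receptors. PABPC4 peaks were listed for 52 of the 57 mesenchymal genes (91.2%) and 18 of the 22 epithelial genes (81.8%), both above the 59.2% of protein-coding genes. Among those listed, the median tallest peak was 228 tags for the mesenchymal and 54.5 for the epithelial genes, next to 78 for all genes. Of the mesenchymal genes, 38 exceeded 78 tags, and 7 of the epithelial genes did. The estrogen receptor gene ESR1 had 7 tags in an intron, the progesterone receptor gene PGR was not listed and ERBB2 had 70 tags. Not every epithelial gene was low. The keratin genes KRT19 (892 tags), KRT18 (301) and KRT8 (170), the claudin gene CLDN4 (213) and the plakoglobin gene JUP (147) lay above that median of 78, while E-cadherin (CDH1) had 56 tags before an A-rich stretch.

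The tallest PABPC4 peaks among the other mesenchymal genes were those of NT5E (the surface enzyme CD73) with 3085 tags, MMP14 (a membrane-bound matrix protease) with 1678, AXL (a receptor tyrosine kinase) with 1041, THBS1 (thrombospondin-1) with 802 and TIMP1 (a protease inhibitor) with 774. By role, all 4 caveolar genes chosen for the mesenchymal list had a PABPC4 peak, of 193 to 589 tags. So did both galectin genes chosen for it, LGALS3 with 660 and LGALS8 with 267, and its 7 filament and contractile genes (44 to 428). All 8 surface genes (4 to 3085) and 25 of 26 matrix genes (20 to 1678) were listed too. The lowest surface genes were PDGFRB with 4 tags and N-cadherin (CDH2) with 8 in an intron, and the matrix gene POSTN was not listed. Some of these heights are intron peaks or precede an A-rich stretch, as for ACTA2 (44, intron) and CAV2 (326, A-rich). The transcription factors had the lowest median of these classes. Of 10, 6 were listed, with 4 to 106 tags and a median of 33, and SNAI1, SNAI3, FOXC2 and PRRX1 were not. The tallest peak of ZEB1, the coding peak of 139 tags before an A-rich stretch, lay above all 6, but its 3′ UTR peak of 73 tags lay below the 106 of TCF3, which is a 3′ UTR peak with no A-rich stretch after it. SNAI2 with 59 lay within their range.

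HNRNPC peaks were listed for 17 of the 57 mesenchymal genes (29.8%) and 1 of the 22 epithelial genes (4.55%), beside 19.0% of protein-coding genes. ITGB1, the integrin beta 1 subunit, had the most with 10 peaks, followed by AXL with 7, LOXL2 (a lysyl oxidase) with 6 and TIMP2 with 5, of which 2 were also listed under the gene ID of CEP295NL, and then NT5E, COL4A2, COL5A1, PLAUR and TGFB1 with 2 each. A 3′ UTR peak, which all 7 genes lacked, was listed for AXL (22 tags), TIMP2 (12 tags) and, among the receptors, ERBB2 (6 tags). The epithelial gene was OVOL2, with 16 peaks, of which 8 were also listed under the gene ID of SNX5.

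**Figure D5:**
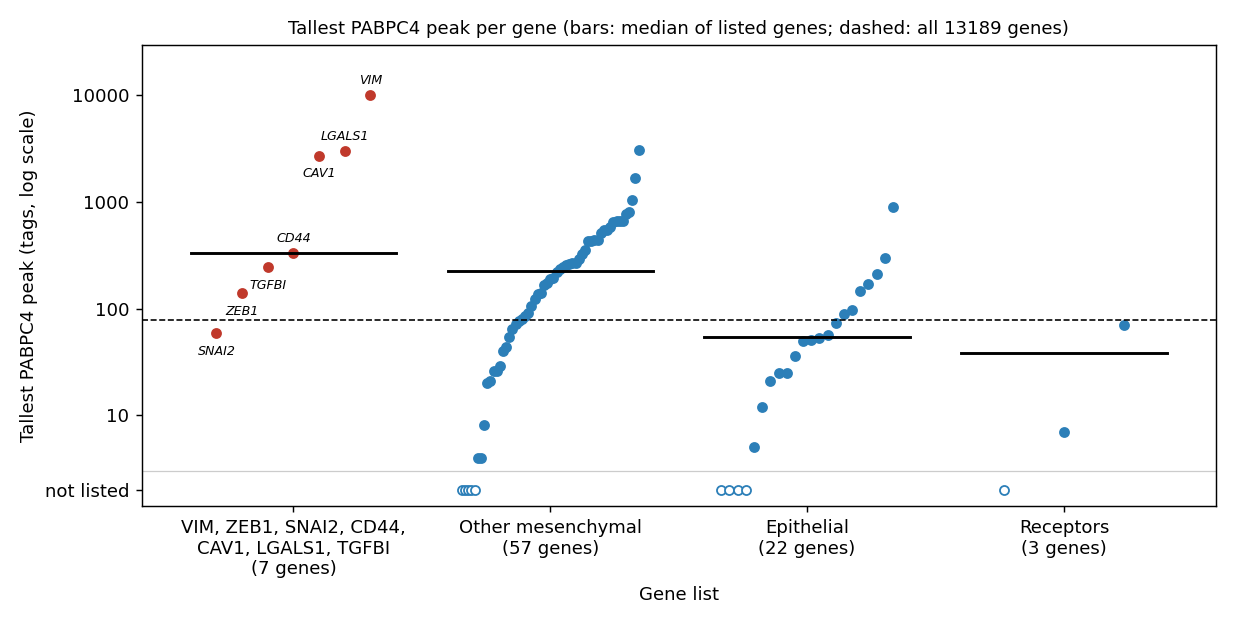
Tallest PABPC4 peak per gene (y axis, tags on a log scale) for the 7 genes and for the lists of other mesenchymal, epithelial and receptor genes (x axis); open circles are genes not in the list, bars are medians of the listed genes and the dashed line is the median of all genes, 78 tags. VIM lies above every gene of the 3 lists, and the epithelial median of 54.5 tags lies below the dashed line.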

How the data were processed

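HNRNPC irCLIP and PABPC4 PAPERCLIP peak lists of MDA-MB-231 cells were used, each made from 2 samples pooled. According to the methods and the submitters' processing notes, HNRNPC reads were collapsed by molecular identifier, trimmed (UMI-tools, cutadapt), aligned with BWA 0.7.17 to hg38 and freed of PCR duplicates, and peaks were called with the CLIP Tool Kit. The name of the HNRNPC list gives HITS-CLIP, and which protocol made it was not settled. A separate description of the PABPC4 processing is not given in the sources used here. The signal deposited by the authors is peak height, the pooled unique tags at the summit, not scaled to depth. The text of each peak also gives a gene ID, an expected height and a p-value of at most 0.1 (HNRNPC) or 0.05 (PABPC4). Reads per library were not analysed here, so the depth is unknown.

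Each position was counted once (1281 and 6271 surplus entries), and all 80 positions of the 7 genes had 1 gene ID. Symbols came from RefSeq (4090 of 4098 and 13155 of 13189 IDs matched). Peaks were placed by their centre on their strand with GENCODE 44 on hg38, in the order 3′ UTR, CDS, 5′ UTR, non-coding exon, intron, with UTR and CDS from protein-coding transcripts only. Similarity to 7SL RNA (299 nt) was called with BLASTN 2.17.0 at an E-value of 1e-05, with 100 nt on each side of the peak. Scripts ran under Python 3.11.15 with scipy 1.17.1 and were tested on simulated data. The genes, the marker lists and the alternatives were chosen with earlier results of these data known. All 7 genes were named, with the protein-coding genes next above and below each by tallest PABPC4 peak, and of the other lists the 5 genes with the tallest PABPC4 peak, the 5 with most HNRNPC peaks (with ties) and those with an HNRNPC 3′ UTR peak. Further genes (CDH1, CDH2, PDGFRB, POSTN, ACTA2, CAV2, TCF3, CEP295NL, LGALS3, LGALS8, the receptors and unlisted factors) were named after their values were seen. The sequences of the peaks that resemble 7SL RNA are not reported here.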

Additional observations from a re-analysis of the deposited data

How the results depend on the processing

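No paired analysis was possible because every peak list merges both of its samples, which is also why no replicate could be left out. Of 75 alternative values for 31 results, 46 stayed within 1.5 times the main count or rank, or within the 95% interval of the main share, and 29 did not. With a peak-caller p of at most 0.001 the 15 HNRNPC peaks became 9, and at or above the list's median height they became 7, the PABPC4 peaks 43 and the mesenchymal genes with an HNRNPC peak 9. The main share was that of the tallest 3′ UTR peak in the PABPC4 3′ UTR height. It was 92.5% for VIM, 49.8% for CD44, 57.1% for CAV1 and 94.9% for TGFBI, and 100% for ZEB1, which has only 1 such peak. Over all peaks of the gene, the share of its tallest peak was 90.7% for VIM, 26.8% for CD44, 53.6% for CAV1 and 66.8% for TGFBI. For ZEB1 it was 8.89%, that of another peak, the coding one of 139 tags. Without peaks before an A-rich stretch the share was 37.1% for ZEB1 (its 3′ UTR peak of 73 tags), 59.1% for CD44 and 89.4% for TGFBI. Of 3′ UTR height with the adjoining peak counted in, an alternative chosen after seeing the data, it was 100% for VIM and 62.3% for CAV1. By summed height VIM ranked 11, ZEB1 366, CD44 559, LGALS1 97 and TGFBI 3420, and by the tallest 3′ UTR peak VIM ranked 1 and ZEB1 4916. Counting 1-base variants of AAUAAA, also chosen after seeing the data, raised the 3′ UTR peaks with a signal to 86.7%. Of 3′ UTR peaks without a signal, 4 of 6 (66.7%) had such a variant, against 42.8% in the whole list. The CAV1 proximal peak was counted through AAAAAA and AAGAAA at its run of 14 A. A further 2 alternatives chosen after seeing the data, counting A runs inside the peak end (26.7% of 3′ UTR peaks) and leaving out positions under several gene IDs (16 epithelial genes with a PABPC4 peak), stayed within those limits. With 6 A in a row only, A-rich stretches followed 0% of 3′ UTR peaks and 59.5% of intron peaks, and with a 20 nt window 0% and 69%. UUUU was found upstream of 69.2% of HNRNPC intron peaks and UUUUUU of 7.69%. Without PABPC4 peaks before an A-rich stretch the median distance between the lists was 36583 nt for these genes. The lowest HNRNPC heights, 7 tags, carry an exact Poisson 95% interval of 2.81 to 14.4.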
